A study of Mus musculus with 6 samples.

Results

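The 47 genes described here build and run mitosis, the division of the duplicated chromosomes between daughter cells. They were taken by name as a fixed list of mitotic kinases, checkpoint proteins, kinesins, condensins and related factors. All 47 were found among the 37620 gene rows of the table. RNA came from granulocyte-macrophage progenitors (GMPs), bone marrow cells that give rise to granulocytes and monocytes, sorted from C57BL/6 mice as Lineage-, c-Kit+, Sca1-, CD34+ cells stained for Fc gamma receptors. The mice were littermates. In 3 control libraries they were Bap1 f/f without Cre, and in 3 libraries labelled Bap1 knockout they were Bap1 f/f with Mx1-Cre. Every mouse was 65 days old and had received polyI:polyC, which mimics viral RNA and induces interferon, at 42 days per the sample labels; the design text of the series gives a younger age. The Mx1 promoter answers interferon in many cell types, so Cre was not limited to GMPs, and only the knockout-labelled mice carried it. What Cre itself does and what loss of Bap1 does cannot be told apart in this design. The comparison asks how transcripts change in GMPs that lose Bap1, a nuclear deubiquitinase of histone H2A.

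In mitosis, cyclin-dependent kinase 1 with its cyclins starts chromosome condensation and spindle assembly. The spindle checkpoint holds the anaphase-promoting complex (APC/C) inactive until each chromosome is attached, after which CDC20 activates the APC/C, securin is destroyed and separase cuts the rings that hold sister chromatids together. Most of these genes are transcribed in the G2 and M phases, under the MuvB complex, B-MYB and FOXM1, and their RNA levels are widely read as a mark of proliferation. GMPs are among the rapidly dividing progenitors of the marrow. In bulk RNA, fewer dividing cells and less RNA per dividing cell cannot be told apart.

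The libraries held 19.5 to 25.9 M gene reads. Values are normalised read counts, that is, reads divided by 1 size factor per library. Bap1 itself was higher in the libraries labelled knockout, at 1343, 998.5 and 1076 in control and 2671, 3309 and 2968 in knockout-labelled libraries (2.63-fold, log2 fold change 1.39, limma adjusted p = 6.07e-05). That runs counter to the label, but the value is given per gene, so a partial deletion is not checked by it. Higher and lower below mean in libraries labelled knockout. The 10 GMP marker genes, among them Mpo, Elane, Cd34 and Kit, were read in both groups. Nothing in the labels says that each library came from its own mouse, so p-values measure the spread between these libraries.

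Most of the mitotic programme did not differ detectably between the groups. Of the 47 members 1 rose, Cdc20, and 6 fell: Pttg1, Top2a, Cdc25b, Anln, Ncapg and Hmmr. That is 14.9% of the members, while 26.8% of the 14391 genes tested passed. The members that rose made up 2.13%, against 11.8% of all genes tested, and those that fell 12.8%, against 15.0%. Calls are at a limma adjusted p under 0.05 over all genes. The median log2 fold change of the members was -0.12, with quartiles at -0.29 and 0.03, while all genes tested had a median of 0.01 and quartiles at -0.40 and 0.37. edgeR called the same 7, with 11.7% of all genes higher and 14.4% lower, 26.0% in all. The 3 values of each group did not overlap in 17 of 47 members (36.2%), 5 higher and 12 lower, while 42.9% of all genes tested were so, 20.4% higher and 22.5% lower. With each library adjusted for the GC content and length of transcripts, as described further on, 7 members were called higher and 3 lower, and among all genes the split went from 1695 higher and 2163 lower to 2631 and 1903.

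**Figure D1:**
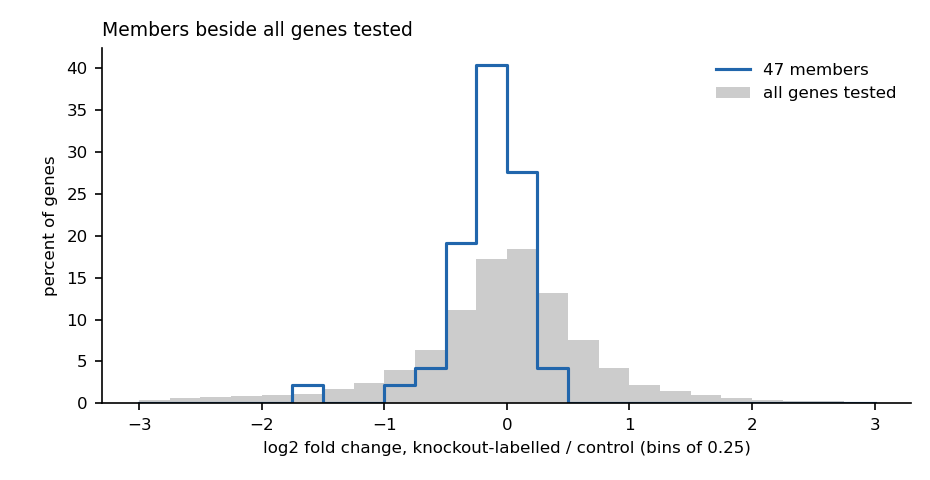
Share of genes (percent, y axis) by log2 fold change between knockout-labelled and control libraries (x axis, bins of 0.25) for all genes tested (grey bars) and the 47 members (blue line). 43 of 47 members lie within 0.5 of no difference, as do 59.9% of all genes tested; 2.86% of all genes lie outside the axis.

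The promoters of these genes are known for a pair of short elements, the cell cycle genes homology region (CHR), which MuvB complexes bind, and the CCAAT box of NF-Y. RefSeq windows of 300 bases, 250 before and 50 after the start, were matched for 39 of 47 members by symbol. The CHR letters TTTGAA or TTCGAA, on either strand, were found in 32 of 39 members (82.1%) and in 21.7% of 27025 genes with a window. CCAAT on either strand was in 32 (82.1%), against 41.1%, and 2 or more CCAAT were in 21 (53.8%), against 13.3%. Both motifs occurred in 29 (74.4%), against 8.61%; a CHR and a CCAAT match can share at most 1 end base. A match is a description of letters, not of binding. Among the 7 called members 6 had the CHR letters and 5 CCAAT, and among the 32 not called with a window 26 and 27.

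The 250 bases before the start are printed for the 4 called members with the lowest adjusted p, because these differ in the elements they hold. They are on GRCm38.p6, 5′ to 3′ on the strand of the gene, with CHR and CCAAT letters of either strand in capitals. Pttg1 (chr11:43425982-43426231, minus strand) held neither, Cdc25b (chr2:131186698-131186947, plus strand) 1 CCAAT, Top2a (chr11:99024190-99024439, minus strand) 4 CHR and 6 CCAAT, and Cdc20 (chr4:118437344-118437593, minus strand) 1 CHR and 2 CCAAT.
Pttg1: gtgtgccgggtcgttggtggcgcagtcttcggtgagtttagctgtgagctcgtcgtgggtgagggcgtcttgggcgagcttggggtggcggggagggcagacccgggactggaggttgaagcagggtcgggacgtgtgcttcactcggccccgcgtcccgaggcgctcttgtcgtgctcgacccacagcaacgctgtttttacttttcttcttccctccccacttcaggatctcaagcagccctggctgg
Cdc25b: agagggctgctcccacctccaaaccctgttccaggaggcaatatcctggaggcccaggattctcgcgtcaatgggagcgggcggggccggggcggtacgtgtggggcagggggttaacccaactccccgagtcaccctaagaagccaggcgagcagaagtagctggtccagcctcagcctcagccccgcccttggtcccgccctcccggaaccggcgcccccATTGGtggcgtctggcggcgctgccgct
Top2a: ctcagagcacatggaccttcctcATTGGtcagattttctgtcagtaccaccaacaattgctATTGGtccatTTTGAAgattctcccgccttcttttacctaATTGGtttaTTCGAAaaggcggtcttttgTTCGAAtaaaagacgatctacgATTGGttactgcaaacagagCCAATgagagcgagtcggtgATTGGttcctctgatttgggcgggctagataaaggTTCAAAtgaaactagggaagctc
Cdc20: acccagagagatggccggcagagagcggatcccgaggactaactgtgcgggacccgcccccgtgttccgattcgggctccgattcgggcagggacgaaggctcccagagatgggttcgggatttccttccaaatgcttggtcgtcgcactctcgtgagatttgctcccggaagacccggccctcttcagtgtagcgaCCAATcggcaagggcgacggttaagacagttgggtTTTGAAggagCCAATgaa
In its whole window Cdc25b had 1 CHR, after the start. Pttg1 and Top2a, which both fell, thus had the fewest and the most of these letters among the 4, and Cdk1, which did not pass the test, had 2 CHR and 3 CCAAT in its window.

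Securin, encoded by Pttg1, showed the largest difference. Securin keeps separase inactive until anaphase. Pttg1 stood at 1048, 930.6 and 1187 normalised reads in the control libraries and at 380.8, 311.3 and 408.8 in the knockout-labelled ones. The lowest control library lay above the highest knockout-labelled library by more than the whole spread of either group. The means were 1055 ± 128 and 367.0 ± 50.2 (SD, n = 3 each), 2.87-fold lower (log2 fold change -1.52, SE 0.17, limma adjusted p = 8.21e-05).

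Cdc20, the gene of the APC/C activator whose action leads to securin destruction, moved the other way. It was at 3375, 2906 and 3283 in control and 3885, 4857 and 4361 in knockout-labelled libraries, without overlap (1.37-fold higher, log2 fold change 0.45, SE 0.12, limma adjusted p = 0.0186). Cdc20 no longer passed when control replicate 2 (adjusted p = 0.100), control replicate 3 (0.0587) or knockout replicate 2 (0.0570) was left out. Exons of Cdc20 overlap those of Elovl1 on the opposite strand by 53 bases, and the sources used here do not say if reads were counted by strand. Separase, encoded by Espl1, was low, at 231.0 ± 24.1 and 213.9 ± 37.8 (SD, n = 3; limma adjusted p = 0.722), so the fall of Pttg1 was not accompanied by a detectable one of Espl1. The ubiquitin-conjugating enzyme gene of the APC/C, Ube2c, stood at 6534 ± 358 and 6102 ± 1299 (adjusted p = 0.588). Cdca3, also called Tome-1, which promotes mitotic entry, was at 4117 ± 365 and 4591 ± 775 (adjusted p = 0.456). Ube2s, which extends ubiquitin chains on APC/C substrates, was read at 35.0 ± 8.06 and 34.3 ± 10.2, and its 95% interval, from -0.97 to 0.88 on the log2 scale, was the widest of all members. Multiply aligned reads stand in a row of their own and in no gene, and Ube2s shares 183 exon bases with Rpl28, so its level is uncertain.

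**Figure D2:**
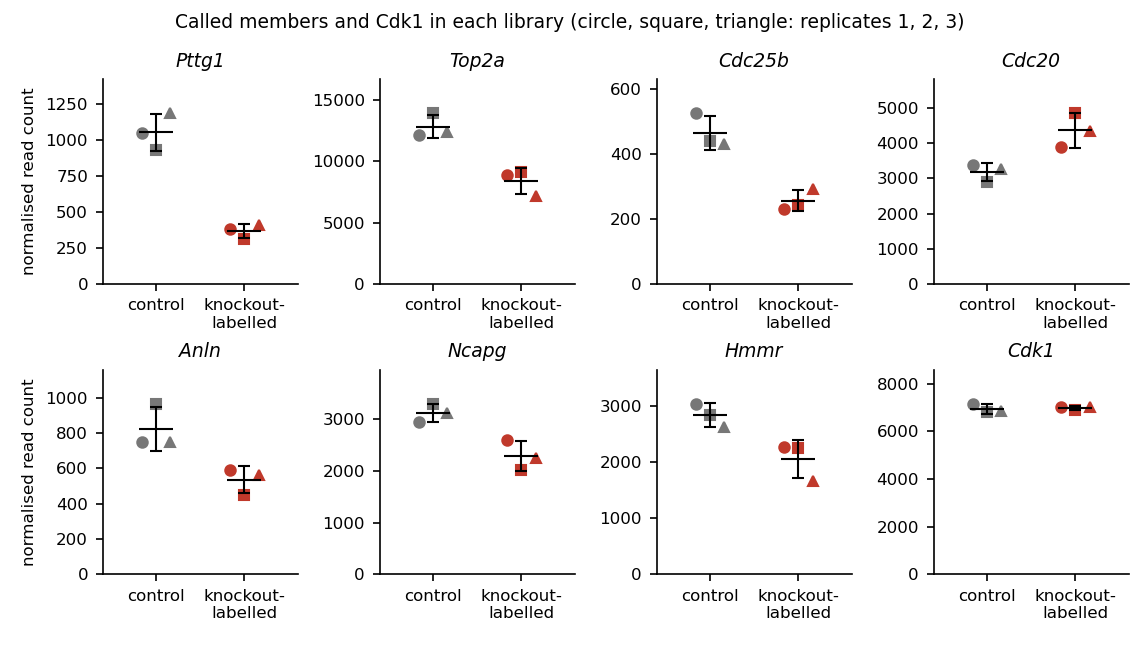
Normalised read count (y axis, from 0) of the 7 members that passed the test and of Cdk1 in each library, with the mean and SD of 3 libraries per group in black. The 2 groups do not overlap in the 7 called genes, while Cdk1 lies between 6792 and 7154 in all 6 libraries.

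Topoisomerase II alpha, encoded by Top2a, untangles sister chromatids before they part. Its normalised reads were 12183, 13926 and 12417 in control and 8869.8, 9151 and 7148 in knockout-labelled libraries. Every knockout-labelled library was below every control library (1.54-fold lower, log2 fold change -0.62, SE 0.12, limma adjusted p = 0.00382). Ncapg, a subunit of condensin I, fell with it, from 2943, 3298 and 3111 to 2597, 2022 and 2246 (1.37-fold lower, limma adjusted p = 0.0207). Ncapg did not pass without control replicate 2 (adjusted p = 0.0977), control replicate 3 (0.0749) or knockout replicate 2 (0.0608), or after GC and length correction (log2 fold change -0.02, adjusted p = 0.930). Exons of Ncapg overlap 944 bases of Lcorl on the opposite strand. The other condensin genes on the list did not pass. Ncapd2, the other condensin I subunit on the list, had a log2 fold change of 0.24 (limma adjusted p = 0.193). The ATPase subunits shared by both condensins were at 7223 ± 35.5 and 6295 ± 1252 for Smc2 (adjusted p = 0.283) and at 13225 ± 354 and 11489 ± 3107 for Smc4 (0.328; 0.0479 without knockout replicate 1); their 95% intervals, -0.53 to 0.09 and -0.61 to 0.13 on the log2 scale, hold the log2 fold change of Ncapg, -0.45.

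Mki67, the gene of the proliferation marker Ki-67 that coats mitotic chromosomes, was read at 5100.0, 5921 and 5373 in control and 5122, 4937 and 3925 in knockout-labelled libraries. The groups overlapped (log2 fold change -0.24, 95% interval -0.52 to 0.05, limma adjusted p = 0.199).

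Among CDK1 and its partners only Cdc25b passed the test, joined after GC and length correction by Ccnb2 and Cdc25c, which were then higher. Cdk1 stood at 7154, 6792 and 6854 in control and 6999.8, 6902 and 7038 in knockout-labelled libraries (log2 fold change 0.01, 95% interval -0.21 to 0.23, limma adjusted p = 0.955). The knockout-labelled libraries thus lay inside the control range. Ccnb1, the main mitotic cyclin, was at 4020.5, 4112 and 4183 against 4465, 3935 and 3349 (adjusted p = 0.684), with knockout replicate 1 above and replicates 2 and 3 below the control libraries. Ccna2, Ccnb2 and Ccnf, which encode cyclins A2, B2 and F, had log2 fold changes of -0.12, 0.20 and -0.01, and Foxm1, the transcription factor of G2 and M phase genes, -0.08; none passed. The CDC25 phosphatases, which remove the inhibitory phosphates from CDK1, differed among themselves. Cdc25b fell from 525.1, 440.5 and 430.5 to 231.5, 243.6 and 292.3 (1.82-fold lower, log2 fold change -0.86, SE 0.18, limma adjusted p = 0.00544), without overlap. Cdc25c was at 657.7 ± 50.6 and 700.7 ± 67.3 (adjusted p = 0.695). Exons of Cdc25b overlap 92 bases of Spef1 on the opposite strand.

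No gene passed among the 3 mitotic kinases outside the other groups, in the main limma fit or in edgeR. At an unadjusted p under 0.05, 1 was higher and 1 lower, and DESeq2 called 1 lower. After GC and length correction 1 was called higher, Nek2. Plk1, the polo-like kinase of centrosomes, kinetochores and cytokinesis, stood at 2586, 2233 and 2171 in control and 1744, 2913 and 2565 in knockout-labelled libraries (log2 fold change 0.02, limma adjusted p = 0.952). The 3 knockout-labelled values spanned a wider range than the control values, on both sides. Aurka, the aurora kinase of the spindle poles, lay just outside the threshold at 3139.8 ± 74.7 and 2445 ± 378, without overlap (log2 fold change -0.37, limma adjusted p = 0.0530). Aurka was called lower in limma without knockout replicate 2 (adjusted p = 0.0140) and with scaling by library totals (0.0261). The same held with 4 added before the log (0.0496), with a mean value of at least 50 (0.0466) and in DESeq2 (0.0482). The other alternative fits did not call it. Nek2, which separates the centrosomes, was at 733.4 ± 50.2 and 935.8 ± 136 (adjusted p = 0.113).

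The 4 genes of the chromosomal passenger complex, which corrects faulty attachments, gave no call in limma, edgeR or DESeq2, and 0 had an unadjusted p under 0.05. Its kinase gene Aurkb was at 5608, 5210.3 and 5818 in control and 4378, 5152 and 4672 in knockout-labelled libraries, without overlap (log2 fold change -0.23, 95% interval -0.48 to 0.01, limma adjusted p = 0.151). Birc5 (survivin) and Incenp, its targeting subunits, had log2 fold changes of -0.14 and 0.21, and Cdca8 (borealin) 0.04.

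All 5 spindle checkpoint genes had log2 fold changes below 0, between -0.37 and -0.01. None passed in the main limma fit, edgeR or DESeq2, and 2 had an unadjusted p under 0.05. The shared direction did not hold after GC and length correction, with a median of 0.00, Bub3 at 0.16 and Mad2l1 called higher at 0.30 (limma adjusted p = 0.0280). Bub1b, which encodes the checkpoint protein BUBR1, stood at 1843, 1753 and 1875 in control and 1109, 1674 and 1674 in knockout-labelled libraries. The groups did not overlap, and replicate 1 was the lowest (limma adjusted p = 0.169). Bub1 and Ttk, the checkpoint kinases, were at 891.3 ± 62.4 against 700.9 ± 12.2 (adjusted p = 0.0818) and at 1026 ± 11.5 against 794.8 ± 69.8 (0.0604). In limma Ttk was called lower without knockout replicate 1 (adjusted p = 0.0437) and with scaling by library totals (0.0369), and in no other alternative fit. Bub3 and Mad2l1, which encode parts of the complex that holds back the APC/C, were at 8306 ± 307 against 7978 ± 389 and at 5649 ± 230 against 5634 ± 736.

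In the kinetochore, which ties chromosomes to microtubules, Cenpa, the centromeric histone H3 variant, was at 4734 ± 200.4 and 5558 ± 250.3 (limma adjusted p = 0.127). The kinetochore motor gene Cenpe was at 3753 ± 181 and 3085 ± 722 (0.173; 0.0261 without knockout replicate 1), and Cenpf at 2204 ± 156 and 2293 ± 395 (0.843). Of these 3, 1 had an unadjusted p under 0.05, and edgeR and DESeq2 called 0; after GC and length correction Cenpa was called higher. The 5 kinesins, motors of the spindle and midzone, lay between -0.20 and 0.12 on the log2 scale. Among them limma, edgeR and DESeq2 called 0, and 0 had an unadjusted p under 0.05. Kif20a, Kif23, Kif2c and Kif4 had log2 fold changes of 0.04, -0.20, -0.18 and 0.12. The groups did not overlap for Kif23, which was lower, and for Kif4, which was higher. Kif11, whose motor pushes the spindle poles apart, stood at 1946, 1728 and 1973 in control and 1983, 1643 and 1495 in knockout-labelled libraries (log2 fold change -0.15, limma adjusted p = 0.456), with overlap.

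Among the spindle assembly genes, Hmmr, a hyaluronan receptor and spindle protein, fell from 3038, 2844 and 2621 to 2260.4, 2247 and 1653 (1.39-fold lower, limma adjusted p = 0.0291). Leaving out any 1 control library (limma adjusted p of 0.107, 0.0936 and 0.0574 for replicates 1, 2 and 3) or the third knockout-labelled one (0.0623) ended the Hmmr call, which was also lost after GC and length correction (-0.15, 0.392). Tpx2, Nusap1 and Prc1, which nucleate or bundle microtubules, were at -0.04, -0.10 and 0.01 on the log2 scale. Of the 3 cytokinesis genes, Anln, the actin-binding anillin of the cleavage furrow, fell from 752.6, 967.0 and 752.3 to 592.0, 449.8 and 565.2 (1.54-fold lower, log2 fold change -0.62, SE 0.17, limma adjusted p = 0.0194). Leaving out control replicate 2 (adjusted p = 0.104) or knockout replicate 2 (0.0639) ended the Anln call, as did GC and length correction (-0.36, 0.0878). Ect2, which activates RhoA for furrowing, and Racgap1, its partner in the midzone, were at -0.36 and -0.27 (adjusted p = 0.126 and 0.183; 0.0327 for Ect2 without knockout replicate 1, and 0.0306 for Racgap1 without knockout replicate 2).

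**Figure D3:**
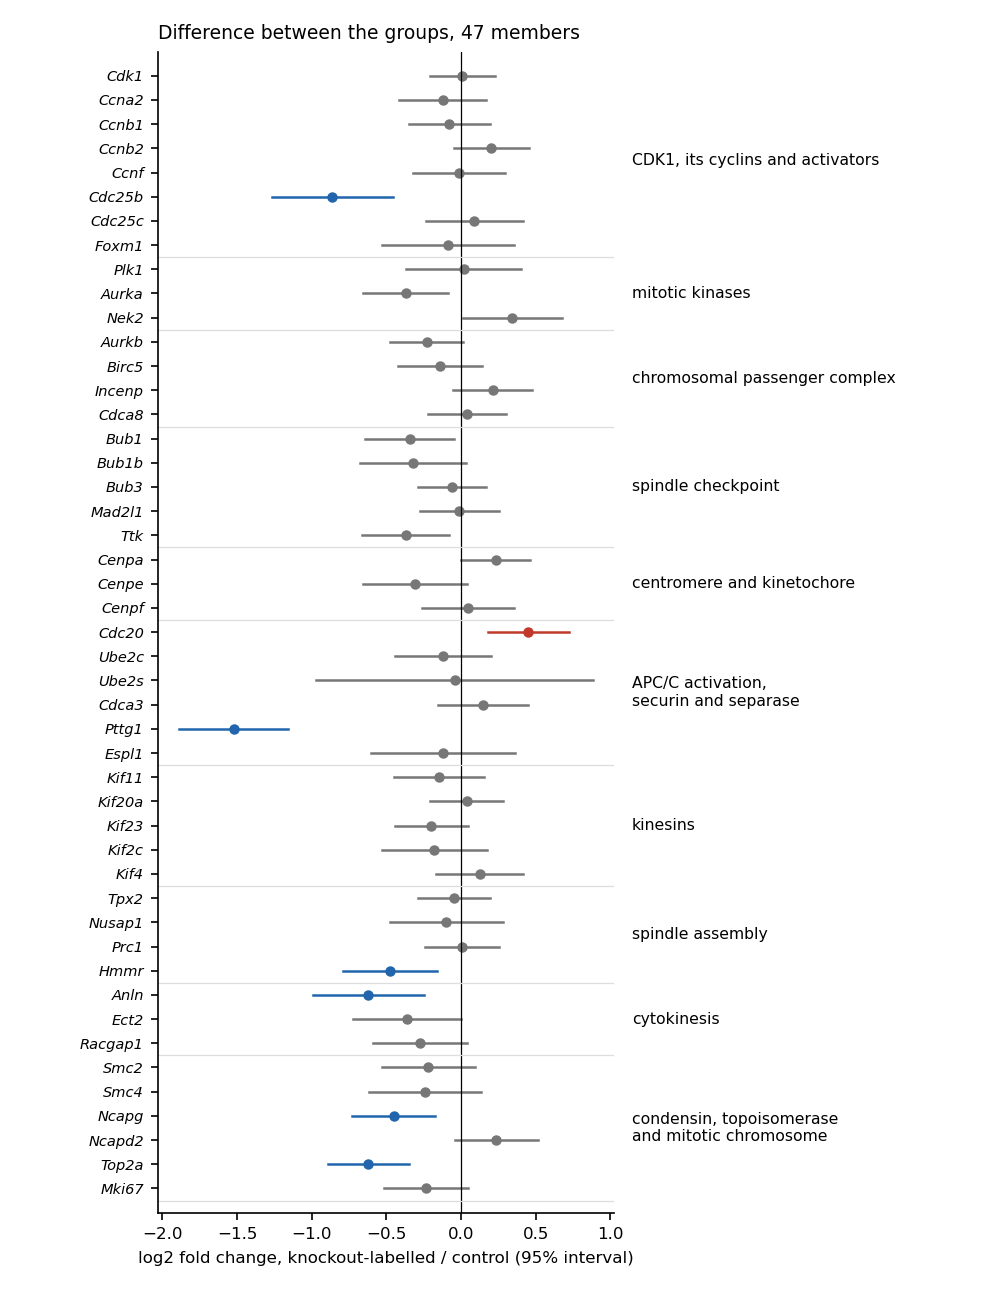
Log2 fold change between knockout-labelled and control libraries (x axis) for the 47 members, grouped by role, with 95% intervals that are not adjusted for the number of genes. Blue marks the 6 members called lower, red the 1 called higher and grey the 40 not called.

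Of the 40 members that were not called, all had a 95% interval inside -1 to 1 on the log2 scale, and 24 inside -0.5 to 0.5. Per kb of exon, on the scale of normalised reads in control libraries, Ccnb2 was the highest at 3719 ± 342 (SD, n = 3), followed by Smc4 at 2538 ± 68.0 and Ube2c at 2513 ± 138, which did not differ beyond their spread. The median member was at 521.9 reads per kb, Foxm1 at 70.2 ± 9.59, Espl1 at 26.4 ± 2.76 and Ube2s at 6.82 ± 1.57.

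The 3 control libraries agreed more closely on these genes than the knockout-labelled ones did, as was so over all genes tested. The median SD of a member's log2 value was 0.089 among control and 0.207 among knockout-labelled libraries, while over all genes tested it was 0.178 and 0.276. Summed over the members, normalised reads were 169222, 170499.5 and 170339 in control and 164335, 165956 and 142038 in knockout-labelled libraries, a ratio of group means of 0.926. Knockout replicate 3 lay apart from the other two. Its median member was 0.27 below the control mean on the log2 scale, against 0.07 in replicate 1 and 0.01 in replicate 2, and 31 of 47 members (66.0%) were below every control library there, against 22 (46.8%) in replicate 1 and 20 (42.6%) in replicate 2. Over all genes tested these shares were 39.4%, 36.8% and 38.2%. Without that library the median log2 fold change of the members was -0.03, and 1 rose and 5 fell. Without knockout replicate 1, 1 rose and 10 fell; without control replicate 2, 0 rose and 3 fell in limma. Libraries with more Xist than Ddx3y were read as female. Replicate 3 was the 1 such library among the knockout-labelled ones, and control replicate 1 the 1 among the controls. Replicate 3 also had the fewest gene reads (19.5 M) and the highest share of reads not aligned (11.6%, against 6.30 to 8.37% in the other libraries). With sex as a term in the limma fit the same 7 members were called; the part of depth or alignment in these values was not tested.

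**Figure D4:**
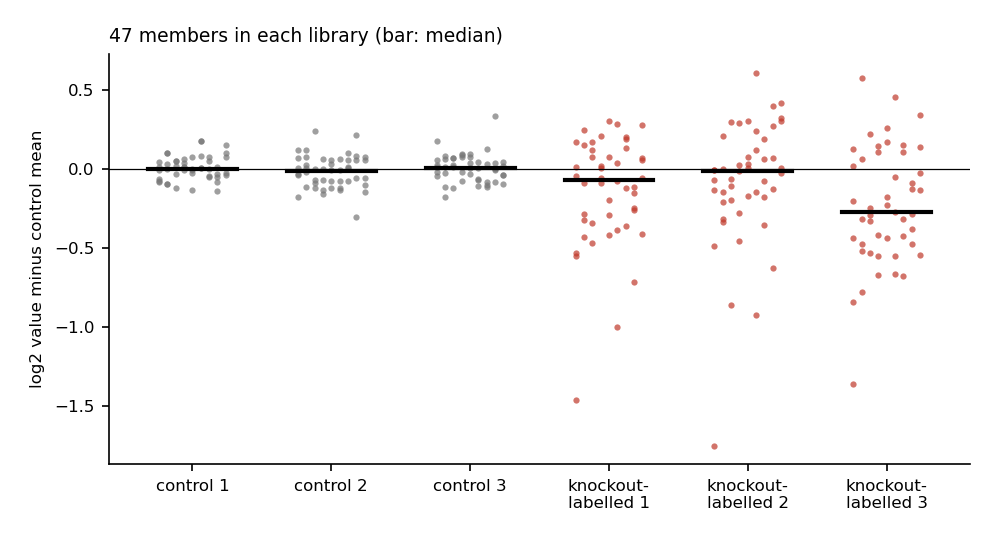
Log2 value of each of the 47 members minus its mean over the control libraries (y axis), in each of the 6 libraries; the bar is the median. The medians lie within 0.01 of 0 in the control libraries and at -0.07, -0.01 and -0.27 in knockout-labelled replicates 1 to 3.

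Marker genes of other cells moved between the same libraries. Beside the counts that follow, 11.8% of all genes tested rose and 15.0% fell. Summed over 10 genes, monocyte and macrophage markers ran from 86485 to 97022 normalised reads in control and were 94689, 105977 and 51019 in the knockout-labelled libraries; 8 of 9 tested fell. Neutrophil maturation markers (10 genes, 3 rose) ran from 157596 to 217645 and were 398877, 383347 and 149550. Dendritic cell markers (8 of 9 tested fell) ran from 8936 to 24056 and from 2105 to 5088, and mast cell and basophil markers (5 of 8 fell, 1 rose) from 50875 to 61137 and from 20066 to 29965. GMP markers (4 of 10 rose, 2 fell) ran from 888202 to 962241 and from 1102699 to 1596880. Erythroid markers ran from 15724 to 23241 and from 9963 to 22297 (4 of 10 rose, 1 fell), megakaryocyte markers from 2199.5 to 3704 and from 1452 to 3471 (1 of 8 rose, 3 fell), and T and NK cell markers from 28519 to 30640 and from 36967 to 56384 (2 of 7 rose, 4 fell). Stem cell markers were lower in sum, at 10497 to 10938 and 7407 to 7792 (3 of 8 fell), with Procr at 0 in the knockout-labelled libraries, as were B lymphoid markers, at 2412 to 3038 and 1128 to 1476 (8 of 8 tested fell), with Pax5, Vpreb3 and Rag1 at 0. The part of these cells in the values of the mitotic genes was not tested.

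Members with lower GC content tended to have lower log2 fold changes. Over the 47 genes, GC content of the longest transcript, from 34.8% for Ncapg to 56.1% for Espl1, and log2 fold change had a Pearson r of 0.30 and a Spearman rho of 0.41; the genes share libraries and are not independent. The median log2 fold change was -0.23 in the 24 members at or below 47.4% GC and 0.01 in the 23 above it. Members' deviations from the control mean correlated with GC content at 0.42, -0.17 and -0.16 in control replicates 1 to 3. In knockout-labelled replicates 1 to 3 they did so at -0.16, 0.42 and 0.49. Deviations of the control libraries cancel around their own mean, so both signs must occur there and say nothing about the groups. Over all genes tested the same correlations were 0.06, 0.01 and -0.08 in control and 0.03, 0.23 and 0.21 in knockout-labelled libraries. With each library corrected for GC content and transcript length, Pttg1 (-1.32), Cdc25b (-0.85) and Top2a (-0.34) remained called lower and Cdc20 (0.36) higher, with limma adjusted p values of 0.000135, 0.00265, 0.0366 and 0.0126. Nek2 (0.50), Cenpa (0.43), Cdc25c (0.38), Ccnb2 (0.32), Prc1 (0.31) and Mad2l1 (0.30) were then called higher too. That made 10 of 47 members, where 32.9% of all genes were called (19.1% higher and 13.8% lower), and the members' median was 0.10 against 0.09 for all genes.

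**Figure D5:**
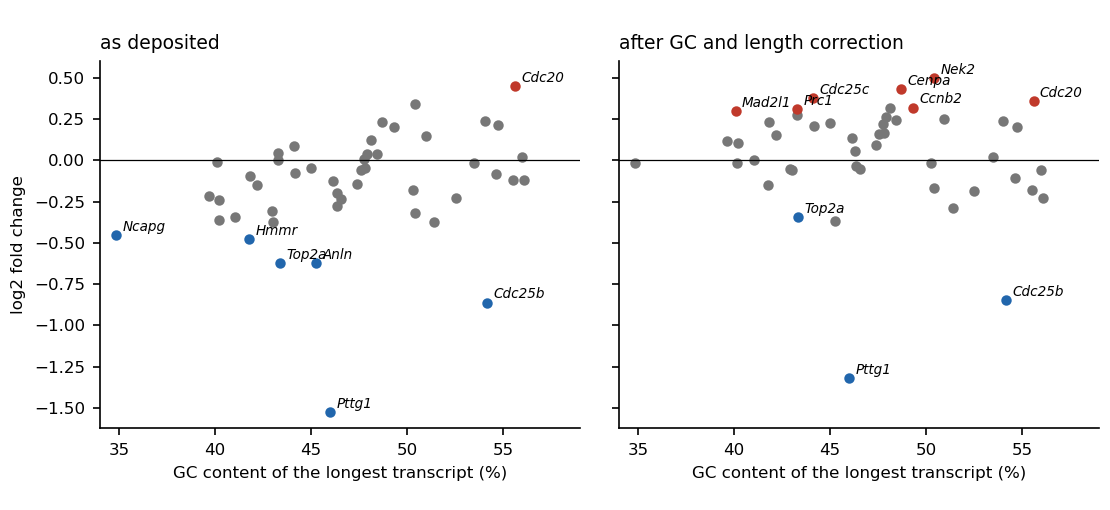
Log2 fold change (y axis) against GC content of the longest transcript (x axis, percent) for the 47 members, before (left) and after (right) correction of each library for GC content and length. Red marks genes called higher and blue genes called lower; Pttg1, Cdc25b, Top2a and Cdc20 are marked in both panels.

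Other genes of the same machinery were counted from 10 lists of 181 genes chosen by function. Of the 177 tested, 11 rose and 19 fell (16.9%, against 26.8% of all genes tested), with a median log2 fold change of -0.04. After GC and length correction the counts were 38 and 8, where 19.1% of all genes were called higher and 13.8% lower. These shares over all genes are the background for the corrected counts of each list below.

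Among 36 further kinetochore and centromere genes 2 rose and 3 fell (7 and 3 after GC and length correction). Zw10 and Kntc1, which encode parts of the complex that brings dynein to kinetochores, had log2 fold changes of -0.81 and -0.86 (limma adjusted p = 0.00191 and 0.0109; 0.0668 for Kntc1 without control replicate 2). Cenpn, a reader of the centromeric nucleosome, fell by 0.48 (0.0131; 0.0526 without control replicate 2, 0.0685 without control replicate 3, and 0.112 after GC and length correction). Pmf1, of the MIS12 complex, rose by 0.57 (0.00950; 0.0553 without control replicate 2). Oip5, which helps to load CENP-A, rose by 0.41 (0.0488) and was lost without any 1 library (0.0650 to 0.185).

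Among 17 APC/C genes 1 rose and 4 fell (2 and 0 after GC and length correction). Anapc16 rose from 1328 ± 46.6 to 2128 ± 70.4 (SD, n = 3; limma adjusted p = 0.00141). Ube2d1 (-0.64) and Cdc27 (-0.51) fell (0.0125 and 0.0174), and both calls were lost without control replicate 2 (0.0638 and 0.0591) and after GC and length correction (0.133 and 0.387); that of Ube2d1 was also lost without control replicate 3 (0.0641), and that of Cdc27 without control replicate 1 (0.0899). Anapc10 fell by 0.61 (0.0356), a call lost in 5 of the 6 fits without 1 library (0.0579 to 0.128) and after GC and length correction (0.205).

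Of 25 centrosome and spindle pole genes 1 rose and 3 fell (5 and 1 after GC and length correction). Kif3a, a ciliary kinesin, was 2.33-fold lower (limma adjusted p = 0.00171). Sapcd2 rose by 0.70 (0.0189; 0.0525 without control replicate 2, 0.0917 without control replicate 3 and 0.0559 without knockout replicate 3). Haus8 fell by 0.49 (0.0356), a call lost without control replicate 1 (0.0836), 2 (0.156) or 3 (0.0525), without knockout replicate 3 (0.0931) and after GC and length correction (0.350). Aspm, of the spindle poles, fell by 0.45 (0.0443), a call lost in 5 of the 6 fits without 1 library (0.0524 to 0.171) and after GC and length correction (0.213). Of the 9 other kinesins only Kif20b fell (-0.47, limma adjusted p = 0.0133). Its call was lost without control replicate 3 (0.0761) and after GC and length correction (0.304), when 1 of the 9 was called higher and 0 lower. Of the 4 other condensin genes Ncaph2 rose by 0.44 (limma adjusted p = 0.0145), a call lost without any 1 control library (0.0564 to 0.0624). After GC and length correction 1 of the 4 was called higher and 0 lower. Among 15 cohesin genes limma called 0, 2 were higher at an unadjusted p under 0.05, and edgeR and DESeq2 called 1 higher; after GC and length correction limma called 6 higher and 0 lower.

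Of 19 regulators of the E2F and MuvB network 3 rose and 0 fell in limma, edgeR or DESeq2, with 2 lower at an unadjusted p under 0.05; after GC and length correction 5 were higher and 0 lower. Tfdp2, a dimer partner of E2F factors, rose from 539.4 ± 51.5 to 1012 ± 158 (1.86-fold, limma adjusted p = 0.00211). E2f7, a repressor of E2F targets, rose from 186.0 ± 14.1 to 333.8 ± 33.7 (1.79-fold, 0.00857). E2f2 rose by 0.67 (0.0177; 0.0632 without control replicate 1, 0.0624 without control replicate 3 and 0.0590 without knockout replicate 2).

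Of 15 brakes on cyclin-dependent kinases 11 were tested, of which 2 rose and 2 fell (2 and 2 after GC and length correction). Cdkn1a, the p53 target p21, rose from 139.8 ± 23.9 to 322.0 ± 36.6 (2.30-fold, limma adjusted p = 0.00219). Gadd45g rose by 1.31 (0.0292), a call lost without control replicate 2 (0.0676) or 3 (0.106), without knockout replicate 2 (0.0936) or 3 (0.0988), and after GC and length correction (0.0639). Btg2, an antiproliferative factor, fell from 800.6 ± 57.9 to 407.3 ± 34.5 (0.000892), and Gadd45b from 860.6 ± 24.0 to 455.0 ± 179.5 (0.00841).

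Of 34 replication and S phase genes 6 fell; limma, edgeR and DESeq2 called 0 higher, and 1 was higher at an unadjusted p under 0.05. edgeR called 4 lower and DESeq2 7. After GC and length correction the split turned, with 7 higher and 2 lower (Cdc6 and Ccne2). Over all genes it turned as well, from 11.8% higher and 15.0% lower to 19.1% and 13.8%. Cdc6, which loads the replicative helicase, fell from a mean of 4250.2 ± 339.7 to one of 2517 ± 231 (SD, n = 3), 1.69-fold lower (limma adjusted p = 0.000937). Ccne2, cyclin E2, was 1.79-fold lower (0.00188). Orc1, of the origin recognition complex, fell by 0.66 (0.0209; 0.0745 without control replicate 1, 0.0754 without control replicate 2, 0.0684 without knockout replicate 2 and 0.0986 after GC and length correction). Of the 7 G1 cyclin and kinase genes Cdk6 rose from 8493 ± 992 to 13497 ± 1459 (1.59-fold, limma adjusted p = 0.00280). After GC and length correction 2 of the 7 were called higher and 0 lower.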

How the data were processed

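The deposited table gave a signal per gene and library: reads per gene, scaled by the authors with a single factor for each library. This was read from the values, all of which were whole multiples of 1 step per library, within 0.01 of a read. In each library 100% of these values came out whole. The submitters' processing notes list DESeq2, HTSeq, STAR, Picard and BWA 0.7.5a, and give NCBIM37 and mm9 as builds, without roles. Genes took 22.9 to 25.2% of reads; 5 rows that name no gene held the rest and were left out. The main test was limma-trend (limma 3.58.1, under R 4.3.3) on log2(value + 1), keeping genes whose mean value reached 10, 2-sided, Benjamini-Hochberg adjusted over all genes tested; this scale understates changes of low genes. edgeR 4.0.16 (quasi-likelihood) and DESeq2 1.42.0 were run on the recovered reads as alternatives; edgeR called 1687 genes higher and 2077 lower. Only the limma fit was tested on simulated counts, with 48 to 50 genes changed at each fold. It called 16.7% of 1.5-fold and 65.3% of 2-fold changes, and 16 of its 141 calls were false. Changes of 1.5-fold were thus mostly missed in that setting. It held 14188 genes, few of them changed, while 26.8% of the genes tested passed in the data. The adjusted threshold is stricter when few genes change, so these shares do not carry over to the comparison itself.

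Symbols, exon lengths and GC content came from GENCODE M21 (GRCm38, another build than the authors'), promoters from RefSeq, matched by symbol. The GC and length correction removed, in each library, a spline fit (4 degrees of freedom each) of deviations from the gene mean. The fit held a constant, so each library was also recentred. Over all genes the median log2 fold change went from 0.01 to 0.09. The part of recentring in the results after correction was not tested. Planned protein motifs were not analysed here. The genes given by library were the called members and a set of central ones, and those named from each list at most 3 per direction with the lowest adjusted p. Other members were given by means or differences. The members and lists were chosen with earlier results of these data known. Reads came from PCR without molecular identifiers.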

Additional observations from a re-analysis of the deposited data

How the results depend on the processing

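The calls of Pttg1, Cdc25b and Top2a held in all 18 alternative fits, with log2 fold changes from -1.61 to -1.32, -0.96 to -0.77 and -0.69 to -0.34. After GC and length correction 2631 genes were higher, 7 members rose and 3 fell, 38 list genes rose and 8 fell, and the members' median was 0.10. Mad2l1 went from -0.01 to 0.30 (limma adjusted p = 0.0280). With that correction and the replicate block together, 5 members rose and 3 fell, 33 list genes rose and 8 fell, the median was 0.10 and Mad2l1 was at 0.30 (0.0496). The share of a GC effect in the group difference was not tested. Without 1 library, calls over all genes ranged from 1058 to 1796 higher and 1413 to 2354 lower, members from 0 to 1 higher and 3 to 10 lower, and list genes from 6 to 19 higher and 7 to 31 lower; the members' median ranged from -0.18 to -0.03 and the ratio of their summed reads from 0.901 to 0.971. Library totals gave a ratio of 0.893. Among members not called, 59 values in alternative fits, of 23 genes, changed sign without passing in either fit.

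The replicate block alone left 1 member higher and 6 lower, and 10 and 18 list genes; Oip5 (adjusted p = 0.0874) and Aspm (0.0683) did not pass under it. Same-numbered libraries deviated together at r = -0.104, 0.042 and -0.058 across genes, so the numbers were not read as pairs; not every library correlated best with its own number. A fit with sex as a term (control replicate 1 and knockout replicate 3 read as female) kept the same 7 member calls. With 3 libraries per group their number limits the precision.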
